A study of Sus scrofa with 12 samples.

Results

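The lipid droplet storage and lipolysis genes are 10 genes chosen for their place in droplet metabolism: the droplet coat proteins PLIN2 and PLIN3, the lipolysis genes PNPLA2, ABHD5, LIPE and MGLL, the acyltransferases DGAT1 and DGAT2, and the fatty acid binding proteins FABP3 and FABP5. All 10 were found among the 31908 Ensembl gene identifiers of the deposited expression files, 15029 of which could be given a symbol. The libraries came from porcine oocytes stripped of their cumulus cells after in vitro maturation (IVM) for 0h, 22h or 46h, with 4 libraries per stage and 12 in all. Before culture the oocytes are held at the germinal vesicle stage, by the middle point meiosis has resumed, and by the last point most oocytes of such cultures have reached metaphase II. No genetic change is named for any group. The maturation medium held the hormones PMSG and HCG, EGF and porcine follicular fluid, so the 22h and 46h oocytes differ from those of 0h by exposure to these as well as by time, and exposure and time cannot be told apart. All oocytes came from the ovaries of prepubertal gilts, whose oocytes are known to be less competent than those of adult sows, and each library pooled several oocytes. The labels do not say whether the 4 libraries of a stage came from separate animals, so the p-values measure the spread between these libraries only.

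A lipid droplet is a core of triglyceride and sterol ester under a single phospholipid layer, and the pig oocyte is known for the large store of lipid it holds in this form. DGAT1 and DGAT2 add the last fatty acid to make triglyceride, perilipins coat the droplet and control access to it, and the fatty acids are released in turn by PNPLA2 (adipose triglyceride lipase, activated by ABHD5), LIPE (hormone-sensitive lipase) and MGLL (monoglyceride lipase). Fatty acid binding proteins carry the products through the cytosol, and in a maturing oocyte the messenger RNAs that encode all of these come from a maternal store, because transcription is largely silent until after fertilization.

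Expression was given as FPKM, fragments scaled by transcript length and library size, so each value is relative to the rest of its library. The rises and falls below are changes relative to the other transcripts, and the amount of a transcript per oocyte was not measured. The pooled level of a library also cannot tell a change in some of its oocytes from a change in all of them. In these libraries, primed from the poly(A) tail, fewer molecules and shorter tails cannot be told apart either. Of the 13 oocyte markers with an identifier, among them GDF9, BMP15 and ZP3, 11 to 13 stood at a stage mean of 1 FPKM or more, and their summed level ran from 31891 to 50630 FPKM. Of the 16 cumulus and granulosa cell markers, 12 had a mean under 1 FPKM, summing to 0.07 to 0.81 FPKM in every library. These 12 were set apart by their low level, so their small sum is no measure of cumulus cells left on the oocytes. The other four, STAR, FST, SERPINE2 and VCAN, were higher, and the whole list summed to 48.1 to 89.7 FPKM at 0h and 118 to 144 FPKM at 46h. That list's part in the results was not tested. The library profile also moved with time: mitochondrially encoded genes took 1.79% to 3.76% of all FPKM at 0h, 8.06% to 12.02% after 22h and 12.8% to 16.7% after 46h, while the number of genes at 1 FPKM or more went from 6939 to 7895 at 0h down to 5819 to 6076 at 46h.

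No read totals were in the files used. An approximate scale came from genes that were above 0 in exactly 1 library, most of which should rest on very few fragments. By this estimate, made after the data had been seen, the libraries correspond to 5230000 to 8710000 fragments, with 11 to 41 genes behind each estimate. On this scale PLIN2 rested on about 633 to 3060 fragments per library, PLIN3 on 2.66 to 27.1, FABP5 on 2.69 to 12.9 and ABHD5 on 3.53 to 15.1. LIPE never exceeded about 8 fragments in a library, DGAT1 3.39 and PNPLA2 1.07. A gene that rests on more than 1 fragment in its only library makes these figures too low, so they are orders of size.

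The 3′ ends of the transcripts show how the members differ where the tail is added. The stretches below are from RefSeq transcripts on Sscrofa11.1, 30 bases each, with the polyadenylation signal AATAAA and, where there is one, the T-rich element in capitals. The element that regulates cytoplasmic polyadenylation in maturing oocytes has this T-rich form, and PLIN2, FABP5 and ABHD5 are shown as the 3 most abundant members with a signal. HILPDA, a small droplet protein that inhibits PNPLA2, is added as the most abundant droplet gene outside the 10.
PLIN2, T-rich element, chr1:203694606-203694635, plus strand: tgcaacttgagcTTTTTATttttcataaag
PLIN2, end, chr1:203694643-203694672, plus strand: tcctttgaattcAATAAAattcattgcaga
HILPDA, end, chr18:19944938-19944967, minus strand: cttaaaTTTTTTTAATgaAATAAAgttgaa
ABHD5, end, chr13:27053720-27053749, plus strand: tctaatagctttAATAAAaggttatttgtc
FABP5, end, chr4:55277831-55277860, minus strand: ctttggttagtaAATAAAtcagtttgtgct
Of the 8 members whose RefSeq record has a 3′ UTR of at least 100 bases, 5 held AATAAA or ATTAAA in the last 100 bases (PLIN2, ABHD5, LIPE, DGAT1 and FABP5). Among them PLIN2 alone also held TTTTAT or TTTTAAT there. These letters were read on the transcript strand, and the searched forms can overlap one another within a run of T. Over 12111 genes with such a UTR, 73.5% held the signal, 18.2% the T-rich form and 14.7% both. A match is a description of letters in this window.

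Among the coat proteins, PLIN2 was the dominant perilipin at every stage and was called in no comparison, whereas PLIN3 fell late. PLIN2, which covers droplets in most non-adipose cells, had stage means of 158 ± 58.6, 121 ± 45.9 and 169 ± 29.5 FPKM in order of time (SD, n = 4). Its 12-library mean of 149 FPKM ranked 543 among all identifiers. By library PLIN2 measured 198, 214, 133 and 87.8 FPKM in the 0h libraries, 55.8, 130.2, 132 and 164 in the 22h libraries, and 126, 186, 190.0 and 172 in those of 46h. The ranges of the stages overlapped throughout, and the lowest library was replicate 1 of 22h. With limma on log2(FPKM + 1) over 7013 genes, the log2 change of PLIN2 was -0.41 at 22h against 0h (adjusted p = 0.371), 0.57 at 46h against 22h (0.175) and 0.16 at 46h against 0h (0.700). The 95% interval of the last, -0.55 to 0.87, leaves room for changes past 1.5-fold upward, so this does not show a constant level. Other scalings moved these values in both directions without a call. Median-of-ratios scaling gave 0.56 at 46h against 0h and 0.92 at 46h against 22h (limma adjusted p = 0.0546). Quantile normalization gave 0.48 at 46h against 0h. With TPM the values were smaller, 0.05 at 46h against 0h and 0.477 at 46h against 22h. Without replicate 1 of 22h, the values at 22h against 0h and at 46h against 22h shrank to -0.08 and 0.23, and without replicate 4 of 0h the sign at 46h against 0h turned (-0.10).

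PLIN3, a perilipin that moves between the cytosol and young droplets, measured 3.09, 1.58, 1.51 and 1.48 FPKM in the 0h libraries, 0.84, 1.26, 2.52 and 1.81 in the 22h libraries, and 0.55, 0.27, 0.42 and 0.26 in those of 46h. Every 46h library lay below every library of the earlier stages, while 0h and 22h overlapped. The fall was 1.06 on the log2(FPKM + 1) scale at 46h against 0h (SE 0.21, limma adjusted p = 0.000637) and 0.89 at 46h against 22h (adjusted p = 0.00367). The earlier step, 22h against 0h, gave -0.17 (limma adjusted p = 0.578). Both calls were lost with quantile normalization (-0.30 and -0.28), and both changes were larger with a pseudocount of 0.1 (-2.06 and -1.79). The 46h level rested on about 17.5 fragments over 4 libraries by the estimate above. With TPM the change at 46h against 0h was -1.26, and with TPM without mitochondrially encoded genes it was -1.21 (limma adjusted p = 0.000905).

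**Figure D1:**
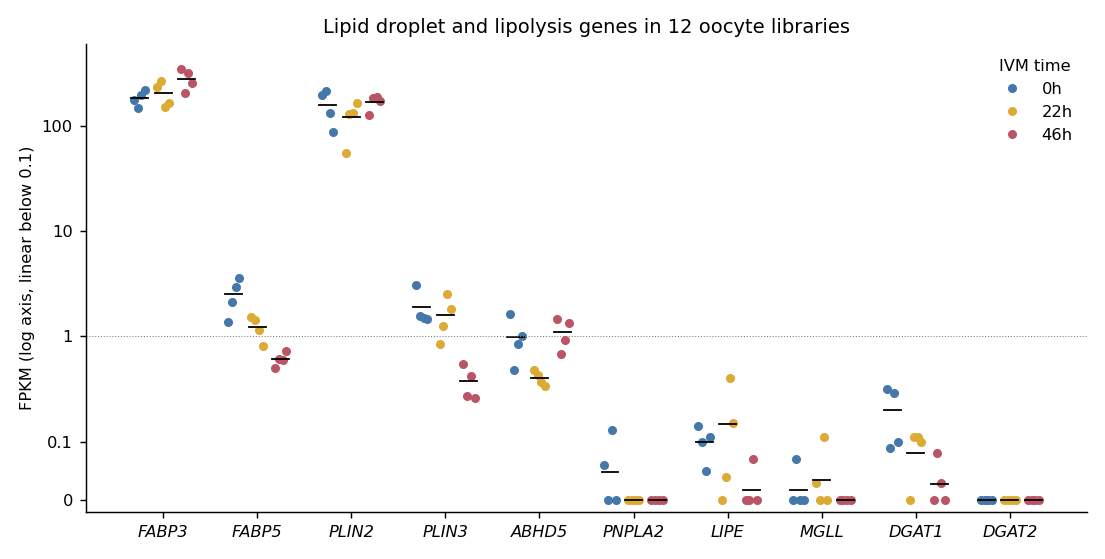
FPKM of the 10 genes in each of the 12 libraries (vertical axis logarithmic, linear below 0.1; colours give the IVM time, short black lines the stage means, the dotted line 1 FPKM). FABP3 and PLIN2 lie near 100 FPKM or above in nearly all libraries, FABP5, PLIN3 and ABHD5 near 1, and the lipases and acyltransferases near 0.

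Of the other perilipins, PLIN5, which ties droplets to mitochondria in oxidative tissues, fell between the first and last stages, which averaged 2.56 ± 0.32 and 0.72 ± 0.31 FPKM (SD, n = 4). The 4 values at 0h ran from 2.13 to 2.89 FPKM, and those at 46h from 0.41 to 1.08. The log2 change was -1.06 (limma adjusted p = 0.000394), and the call was lost with quantile normalization (-0.36). PLIN5 was also called lower at 22h against 0h (-0.62, adjusted p = 0.0329). That call was lost under 3 of 4 other scalings and when replicate 1 or 2 of 0h, or replicate 1 or 2 of 22h, was left out. The adipocyte perilipin PLIN1 averaged 0.01 FPKM and PLIN4 was listed at 0 in all 12 libraries. As a result PLIN2 made up 95.5% to 98.0% of the summed perilipin FPKM in the 0h libraries, 96.5% to 98.2% in those of 22h, and 99.2% to 99.6% in those of 46h.

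HILPDA was called higher at 46h against 0h, where PLIN2 had no call, and HILPDA was not tested against PLIN2. HILPDA measured 232, 155, 206 and 167 FPKM in the 0h libraries, 174, 320, 883 and 476 in the 22h libraries, and 286, 515, 629 and 443 in those of 46h. All 46h libraries lay above all 0h libraries, and the 22h libraries spread over both ranges, with replicate 3 of 22h the highest of all. At 46h against 0h the log2 change was 1.26 (SE 0.39, limma adjusted p = 0.0112), called under all 4 other scalings. Its change of 1.06 at 22h against 0h missed the threshold (limma adjusted p = 0.0519). It was called under 3 of 4 other scalings and without replicate 1 of 22h, and ran from 0.67 to 1.45 with each library left out. With 373.8 FPKM on average it ranked 244 among all identifiers, above both PLIN2 and FABP3.

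**Figure D2:**
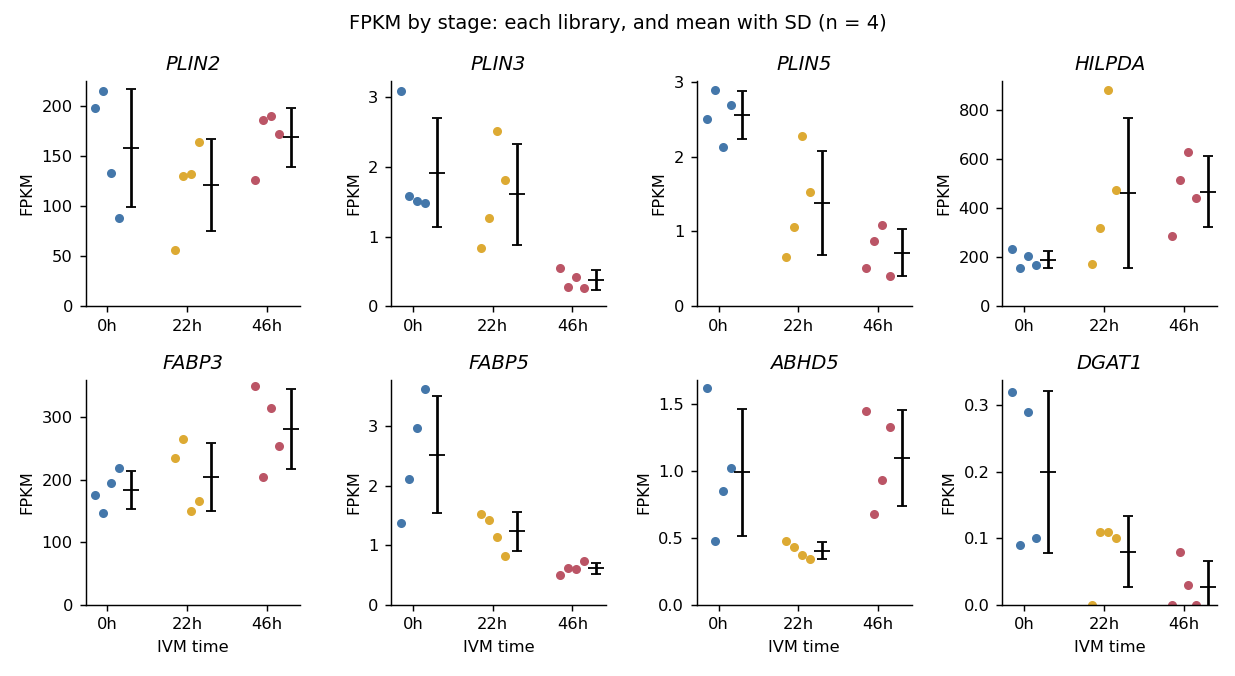
FPKM by IVM time for 8 genes, each panel with its own axis from 0 (points, libraries in replicate order; bars, mean and SD of 4 libraries, cut at 0). PLIN3, PLIN5 and FABP5 were lower at 46h than at 0h in every library, HILPDA was higher, and PLIN2 overlapped between stages.

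The lipolysis genes were at the low end of the range, apart from the co-activator. ABHD5, which binds PNPLA2 and activates it, measured 1.62, 0.48, 0.85 and 1.02 FPKM in the 0h libraries, 0.48, 0.43, 0.37 and 0.34 in the 22h libraries, and 1.45, 0.68, 0.93 and 1.33 in those of 46h. The 22h libraries lay below all 46h libraries and touched the 0h range at a single value (0.48 FPKM). With a mean of 0.83 FPKM the gene was under the 1 FPKM minimum of the fit. In an exact two-sided permutation test of 4 against 4 libraries, the log2 difference of 0.56 at 46h against 22h had p = 0.0286, the smallest that 70 arrangements can give, and 0.2 after Benjamini-Hochberg adjustment over 14 tests. With a pseudocount of 0.1 the difference was 1.20. At 22h against 0h the difference was -0.47 (exact permutation p = 0.0571, adjusted 0.2). At 46h against 0h it was 0.09, and it turned to -0.04 without replicate 2 of 0h.

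PNPLA2, which cleaves the first fatty acid from triglyceride, was above 0 only in replicates 1 and 3 of 0h, at 0.06 and 0.13 FPKM, and was listed at 0 in all 8 later libraries. LIPE, which acts on diacylglycerol, measured 0.14, 0.10, 0.05 and 0.11 FPKM at 0h, 0, 0.04, 0.40 and 0.15 FPKM at 22h, and 0.07 FPKM in replicate 3 of 46h with the other libraries of that stage at 0. MGLL, which completes lipolysis, was above 0 in replicate 2 of 0h (0.07 FPKM) and replicates 1 and 3 of 22h (0.03 and 0.11 FPKM) and at 0 in the other libraries. The 3 lipases summed to 0.03 to 0.51 FPKM in the libraries of 0h and 22h, and to 0 in 3 of the 4 libraries of 46h. The groups of each lipase overlapped in every comparison, and no exact test of them had an adjusted p under 0.05. By the estimate above, PNPLA2 and MGLL rested on about 1.55 and 1.59 fragments over all 12 libraries and LIPE on 19.9, of which about 8 were in replicate 3 of 22h. The tests do not show that their levels stayed the same. G0S2, an inhibitor of PNPLA2, was listed at 0 in all libraries, which does not show that it was absent. BSCL2 (seipin, which shapes new droplets) averaged 0.17 FPKM.

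The acyltransferases were also low. DGAT1, the enzyme of the endoplasmic reticulum, measured 0.32, 0.09, 0.29 and 0.10 FPKM in the 0h libraries, 0, 0.11, 0.11 and 0.10 in the 22h libraries, and 0, 0.08, 0.03 and 0 in those of 46h. All 0h libraries were above all 46h libraries. The log2 difference of -0.22 had an exact permutation p of 0.0286 and an adjusted p of 0.2. At levels this low the pseudocount sets the size, which was -1.18 with a pseudocount of 0.1. The higher group amounted to about 8.55 fragments over 4 libraries. DGAT2, which makes triglyceride at the droplet surface, was listed at 0 in all 12 libraries. The RefSeq assembly holds a further locus for DGAT2 on an unplaced scaffold, annotated as protein-coding, which covers the whole transcript at 99.2% identity. The share of reads that fell to that locus was not analysed here, so the 0 is a listed value and not an absence.

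Across the 6 members under the minimum, 2 of the 14 tests had groups that did not overlap, ABHD5 at 46h against 22h and DGAT1 at 46h against 0h, both at p = 0.0286 in the exact permutation test, and 0 passed the adjustment. Among all genes under the minimum and above 0 in a library of the comparison, 5.58% had groups that did not overlap at 22h against 0h, 10.2% at 46h against 22h and 17.0% at 46h against 0h. The members were 0, 1 and 1 in these comparisons.

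FABP3 and FABP5 were called in opposite directions at 46h against 0h. FABP3, the heart-type carrier that brings fatty acids to mitochondria, measured 176, 147, 195 and 219 FPKM in the 0h libraries, 235, 265, 151 and 166 in the 22h libraries, and 350.1, 205, 316 and 254 in those of 46h. The stages overlapped, since replicate 2 of 46h lay below replicate 4 of 0h. The stage means were 184 ± 30.6, 204 ± 54.9 and 281 ± 64.4 FPKM (SD, n = 4). At 46h against 0h the log2 change was 0.59 (SE 0.22, limma adjusted p = 0.0317), which exceeded the 1.5-fold limit by little, and the earlier steps gave 0.13 and 0.47 (adjusted p = 0.695 and 0.0989). This call was lost with TPM (0.49), with no filter (adjusted p = 0.0607), with the replicate block (0.0547) and when any of replicates 1 or 2 of 0h or 1 or 3 of 46h was left out (0.48 to 0.58). The direction at 46h against 0h held under all these settings. Median-of-ratios scaling gave a larger change, 0.996 (limma adjusted p = 0.00107). With it 46h against 22h was also called (0.82), as it was without replicate 2 of 22h or replicate 2 of 46h (0.61 for each).

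FABP5, the epidermal-type carrier, measured 1.37, 2.11, 2.97 and 3.62 FPKM in the 0h libraries, 1.53, 1.43, 1.14 and 0.82 in the 22h libraries, and 0.50, 0.61, 0.60 and 0.73 in those of 46h. All 46h libraries were below all earlier ones, and the 22h range touched the 0h range only through replicate 1 of 0h. The fall at 46h against 0h was 1.08 on the log2(FPKM + 1) scale (SE 0.20, limma adjusted p = 0.000231), and it was 0.37, without a call, after quantile normalization and 1.81 with a pseudocount of 0.1. At 22h against 0h the fall of 0.62 was called (adjusted p = 0.0259). That call was lost with median-of-ratios scaling (-0.56), with quantile normalization (-0.51), with no filter (adjusted p = 0.0668), with only the groups compared (adjusted p = 0.0638) and when replicate 3 or 4 of 0h, or replicate 3 or 4 of 22h, was left out (-0.48 to -0.61). At 46h against 22h the change was -0.46 (adjusted p = 0.0665). It was called with a pseudocount of 0.1 (-0.88, limma adjusted p = 0.0304) and had the opposite sign (0.14) after quantile normalization. With TPM the change at 46h against 0h was -1.26, and with TPM without mitochondrially encoded genes it was -1.19 (limma adjusted p = 0.000176). FABP3 made up 98.2% to 99.2% of the summed FPKM of the named FABP genes in the 0h libraries and 99.7% to 99.9% in those of 46h.

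FABP3 matched 7 further loci in the assembly at 88.8% to 95.3% identity, 6 of them in 1 piece and that on chromosome 4 in 2. All overlap annotated pseudogenes, and those on chromosomes 2, 4 and 13 also overlap a gene annotated as protein-coding. This matters for its FPKM, since reads from the transcript can in part match these loci. The stretch of 30 bases that differs most from the closest 2 complete copies without gaps lies in the coding part, at bases 401 to 430 of the 447-base transcript, and is shown with the copies' mismatches in capitals.
FABP3, chr6:87943020-87943049, minus strand: catggcagtgcagtttgcactcgcacttac
Copy on chromosome 6, chr6:82298550-82298579, minus strand: caCggcagtgAagtGtgcaTtcgcacttaT
Copy on chromosome 17, chr17:16029057-16029086, plus strand: caCggcagtgcagtttgcactTgcaTttaT
Over their whole alignments these copies differed from the transcript at 21 of 447 and 22 of 445 bases. How the authors' estimate divided such reads was not analysed here. No other locus covering over 50% of the transcript was found for the other 8 members at 85% identity or more.

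**Figure D3:**
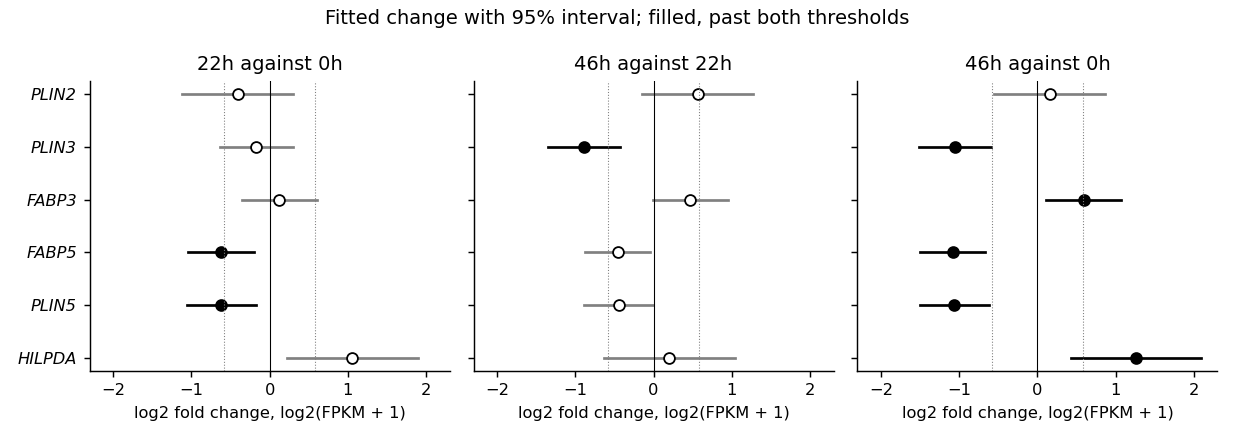
Log2 fold change on the log2(FPKM + 1) scale with 95% intervals from limma for the 4 tested members, PLIN5 and HILPDA (filled points, past both thresholds; dotted lines, 1.5-fold). PLIN3, FABP5 and PLIN5 lie below 0 and HILPDA and FABP3 above it at 46h against 0h, and the interval of PLIN2 spans 0 in all comparisons.

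Counted over the 4 members that passed the minimum of 1 FPKM, FABP5 was past the thresholds (adjusted p under 0.05, change over 1.5-fold) at 22h against 0h, PLIN3 at 46h against 22h, and PLIN3, FABP3 and FABP5 at 46h against 0h. Of all 7013 genes tested, 7.84% were called higher and 18.9% lower at 22h against 0h, 9.87% higher and 32.6% lower at 46h against 22h, and 16.8% higher and 39.1% lower at 46h against 0h. After quantile normalization, 1048 genes were higher and 1126 lower at 22h against 0h and 1971 higher and 1340 lower at 46h against 22h, where 550 and 1323, and 692 and 2283, had been called as deposited. After median-of-ratios scaling the latter comparison gave 1407 and 1793, and TPM without mitochondrially encoded genes gave 790 and 1211 at 22h against 0h. With 4 members tested, the counts (1 lower, then 1 lower, then 1 higher and 2 lower) are too few to be set apart from these shares. Over all genes, the median log2 change at 46h against 0h was -0.25 for FPKM taken unchanged, 0.06 after median-of-ratios scaling and 0.37 after quantile normalization. Relative to the median as deposited, PLIN3 and FABP5 still stood lower and PLIN2 and FABP3 higher.

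Ratios within a library avoid the choice of any scaling by 1 factor per library, save for the pseudocount and low counts. Quantile normalization is not of that kind and was not run for the ratios. With it the log2 changes at 46h against 0h were 0.48 for PLIN2 and -0.30 for PLIN3, and 0.80 for FABP3 and -0.37 for FABP5. The ratios below therefore hold for the deposited FPKM. The FPKM of PLIN2 was 59.3 to 136 times that of PLIN3 in the 0h libraries, 52.5 to 103 times at 22h and 229 to 689 times at 46h. The 46h libraries lay above all others by this ratio, but overlapped those of 0h once the pseudocount was added. On the log2 scale with the pseudocount, the ratio was 1.45 higher at 46h than at 22h (exact permutation p = 0.0286, adjusted over 12 tests 0.0857) and 1.21 higher than at 0h (0.0571, adjusted 0.114). The FPKM of FABP3 was 60.5 to 128 times that of FABP5 at 0h, 132 to 203 times at 22h and 336 to 700.1 times at 46h. These ranges did not overlap, but with the pseudocount those of 0h and 22h did, and the log2 ratio was 0.75 higher at 22h than at 0h (exact permutation p = 0.0571, adjusted 0.114). The log2 ratio with the pseudocount was 1.68 higher at 46h than at 0h and 0.93 higher at 46h than at 22h (exact permutation p = 0.0286 and adjusted 0.0857 for each). Of the 12 exact ratio tests 4 had p = 0.0286, and 0 passed the adjustment, which in this design would need at least 7 of the 12 at that value. The ratio of PNPLA2 to LIPE and of DGAT1 to DGAT2 rested on values near 0 and is not read further.

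In order of level, FABP3 and PLIN2 led at every stage. Their ranges overlapped at 0h and 22h, and at 46h all FABP3 values (205 to 350.1 FPKM) lay above all PLIN2 values (126 to 190.0 FPKM). PLIN2 was 62.8-fold above the third member, FABP5, at 0h, 75.02-fold above PLIN3 at 22h and 154-fold above ABHD5 at 46h, on the FPKM scale, which is per length. The next places went to FABP5, PLIN3 and ABHD5 at 0h, to PLIN3, FABP5 and ABHD5 at 22h and to ABHD5, FABP5 and PLIN3 at 46h. Neighbours among them overlapped, except FABP5 and ABHD5 at 22h. PLIN2 and FABP3 together carried 98.0% to 99.6% of the summed FPKM of all 10 members, and the 10 members together 0.0380% to 0.0641% of the FPKM of a library.

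The named genes with the course most like each called member were found by the root mean square difference of centred log2(FPKM + 1) over 12 libraries, among 6111 named genes tested. For PLIN3 they were TSPAN14 (0.194) and TTI2 (0.197), against a median of 0.668 over all. FABP3 lay closest to CCDC117 (0.128) and PPM1A (0.129), which averaged 15.2 and 10.3 FPKM before culture and 25.8 and 17.5 FPKM at its end. FABP5 lay closest to SAP18 (0.126), which averaged 239 FPKM before culture and 115 FPKM at its end, and to SMIM8 (0.135).

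The other genes of lipid metabolism, 108 in 5 lists, showed how the members sit in the pathway. Of these, 93 had an identifier, 15 were at 0 in all libraries and 40 passed the minimum. At 22h against 0h none was called higher and 5 lower, at 46h against 22h 4 were higher and 10 lower, and at 46h against 0h 6 were higher and 16 lower. These make 12.5%, 35% and 55% of the lipid genes tested, beside 26.7%, 42.4% and 55.9% called in either direction over all genes. Their median log2 change at 46h against 0h was -0.30, beside -0.25 over all genes tested. These splits depended on the scaling. At 22h against 0h they were 1 higher and 5 lower after median-of-ratios scaling, 4 and 4 after quantile normalization and 2 and 3 with TPM without mitochondrially encoded genes. At 46h against 22h they were 10 and 7 after quantile normalization and 2 and 10 with TPM. At 46h against 0h they were 10 and 13 after median-of-ratios scaling, and 13 and 8 after quantile normalization. Over all genes the split at 46h against 0h, 1179 higher and 2743 lower as deposited, became 2046 and 2312 with the former and 2877 and 1789 with the latter.

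Of the 10 genes of droplet surface and biogenesis tested, 2 were higher and 3 lower at 46h against 0h. LDAF1, the partner of seipin in droplet assembly, rose with HILPDA, from 4.92 ± 2.29 FPKM to 11.7 ± 2.96 FPKM (SD, n = 4; log2 change 1.16, limma adjusted p = 0.00845). UBXN8 and AUP1, membrane proteins linked to protein degradation at the endoplasmic reticulum, the latter also found on droplets, fell with log2 changes of -1.84 and -1.45, and PLIN5 was the other. Of the 5 further lipases tested, LIPA, the acid lipase of the lysosome, had a log2 change of 1.14, with means of 3.93 and 10.04 FPKM. DDHD1, a phospholipase that acts on phosphatidic acid, fell by 2.32, from 48.2 ± 10.8 to 8.92 ± 2.68 FPKM (SD, n = 4). ABHD12 and ABHD6, which hydrolyse monoacylglycerol, fell with log2 changes of -1.85 and -1.40. All of these directions and calls at 46h against 0h held under the 4 other scalings, PLIN5 apart.

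In glycerolipid synthesis, 2 of 8 genes tested were higher and 4 lower at 46h against 0h. AGPAT2, which makes phosphatidic acid, had the largest change of any gene named here (log2 change -3.27), with stage means of 11.4 ± 2.94, 4.29 and 0.28 ± 0.19 FPKM in order of time (SD, n = 4). LPIN2, a phosphatidate phosphatase, fell by 1.36. AGPAT5, a relative of AGPAT2, fell by 0.93, but was not called with quantile normalization. CHPT1 and DGKE, which use diacylglycerol for phosphatidylcholine and phosphatidic acid, rose by 0.61 and 0.60 on the log2(FPKM + 1) scale, near the fold limit. Their means went from 1.755 to 3.20 FPKM and from 1.23 to 2.37 FPKM, and at such levels the pseudocount makes the change smaller. CHPT1 was not called with TPM or when replicate 1 of 0h or of 46h was left out. DGKE was not called without replicate 1 or 3 of 0h or replicate 4 of 46h. The most abundant gene of the list, CEPT1, changed by -0.29 without a call, and its sign turned under 2 of 4 other scalings (-0.40 to 0.34).

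Of 8 genes of fatty acid activation and binding tested, none was higher and 3 were lower at 46h against 0h. ACSL3, the droplet-bound acyl-CoA synthetase, was the most abundant, with stage means of 494 ± 111, 206 and 310.4 ± 44.4 FPKM in order of time (SD, n = 4). It fell by 1.26 at 22h against 0h and rose by 0.60 at 46h against 22h. The latter call was lost with TPM and without replicate 3 or 4 of 22h or replicate 1, 2 or 4 of 46h. The change at 46h against 0h (-0.65) was called under 1 of 4 other scalings, and not without replicate 1 or 2 of 0h or replicate 3 of 46h. ACSL1 and ACBD3 fell with log2 changes of -0.98 and -1.15, and neither was called with quantile normalization.

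Of 9 genes of fatty acid synthesis and elongation tested, 1 was higher and 3 lower at 46h against 0h. HSD17B12, a reductase of the elongation cycle, rose by 1.61, from 85.5 ± 42.4 to 237 ± 36.1 FPKM (SD, n = 4), and ELOVL7, an elongase, fell by 1.68, from 70.6 ± 25.6 to 20.2 ± 2.33 FPKM, both under all 4 other scalings. ACSS2 and ACLY, which supply acetyl-CoA, fell with log2 changes of -0.95 and -0.66. ACSS2 was not called with quantile normalization, nor ACLY with median-of-ratios scaling or quantile normalization, the latter turning its sign (0.04), or without replicate 4 of 0h or replicate 2 of 46h.

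**Figure D4:**
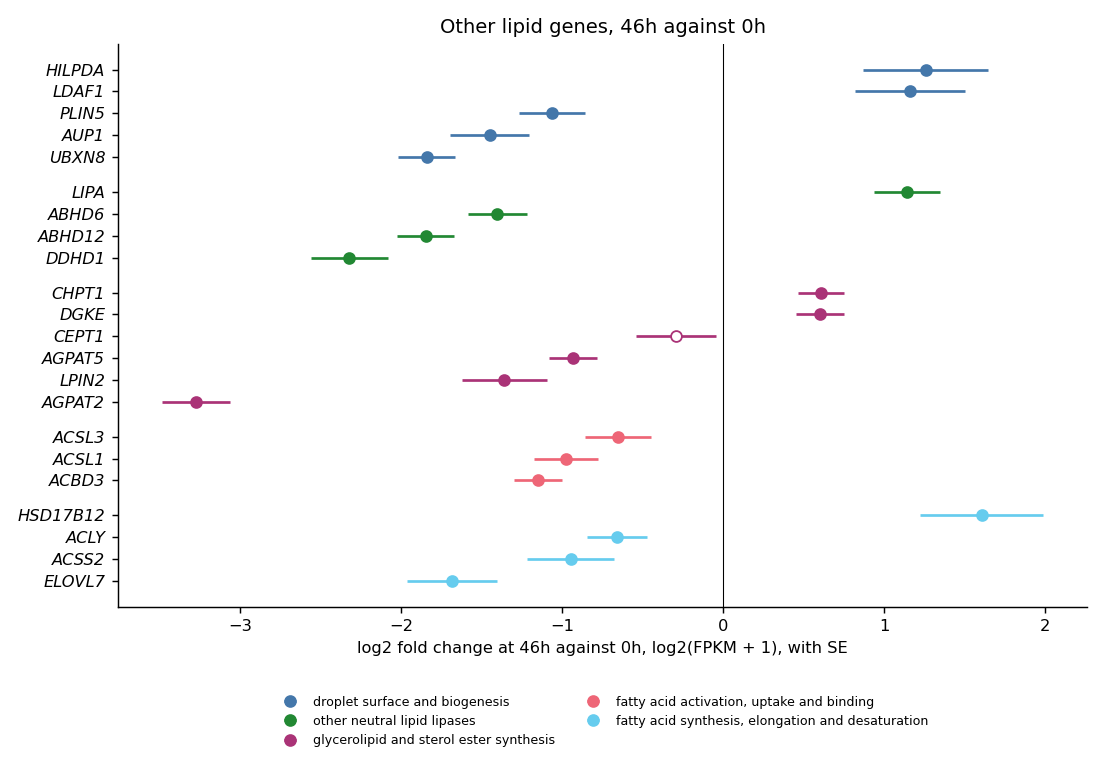
Log2 fold change at 46h against 0h on the log2(FPKM + 1) scale, with standard errors, for the named genes of 5 other lipid lists (colours, lists; filled points, past both thresholds). AGPAT2 lies lowest (-3.27) and HSD17B12 highest (1.61).

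Transcripts rich in G and C were frequent among the low members, ABHD5 apart. PNPLA2 (67.1% GC), DGAT1 (64.9%), LIPE (63.2%), PLIN3 (63.0%) and DGAT2 (60.01%) were at 60% or above, and MGLL was at 59.3%. In mean FPKM, PLIN3 nevertheless stood above ABHD5 (0.83 FPKM), and PLIN5, at 68.0% GC, averaged 1.55 FPKM. PLIN2 (48.4%), FABP3 (50.8%), FABP5 (45.3%) and ABHD5 (44.9%) were below the median of 51.9% over 13633 named genes with a RefSeq transcript. Over all these genes, 32.1% of those at 60% GC or more were at 0 in every library, against 8.26% of those under 45%, and 12.4% against 62.4% had a mean of 1 FPKM or more. The part of GC content in the low values of these members was not tested. Of 50 ribosomal protein genes, only the paralog RPL10L was listed at 0 in every library. These genes were not matched to the members by level or GC content, so this says nothing about the zeros of weak transcripts.

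**Figure D5:**
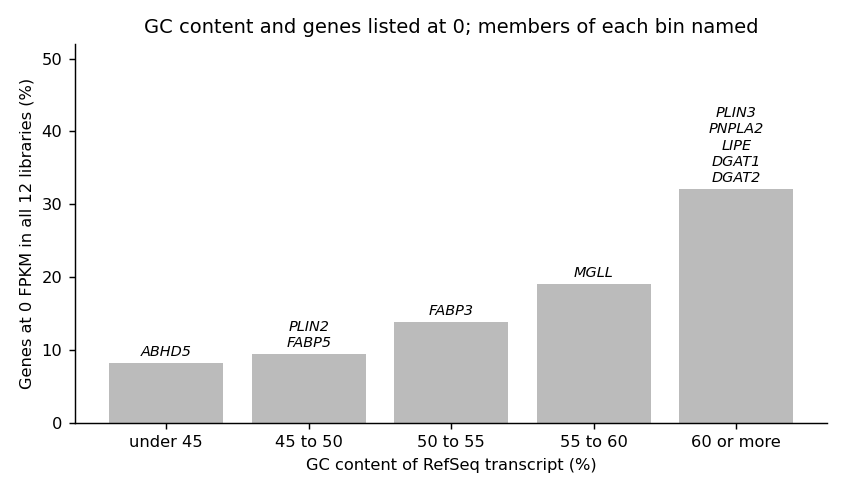
Percentage of named genes listed at 0 FPKM in all 12 libraries, by GC content of the RefSeq transcript, with the members of each bin named above its bar. The share goes from 8.26% under 45% GC to 32.1% at 60% or more, the bin that holds 5 of the 10 members.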

How the data were processed

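Oocyte libraries were made with SMART-Seq2, which copies RNA from the poly(A) tail. The FPKM values were made by the authors and deposited as 1 table per library. According to the study's methods and processing notes, reads were trimmed with Trim Galore, aligned with STAR to the Sscrofa11 genome and quantified with RSEM; read counts were not used here. FPKM carries no depth, and no interval from counts could be given. The middle stage is 22h, as in the sample labels, although the series text gives another hour for it.

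Symbols came from a table matched on identifiers. The 7013 genes whose mean reached 1 FPKM entered limma 3.58.1 in R 4.3.3 on log2(FPKM + 1), with stage as the only factor over 12 libraries and an intensity trend. P-values were adjusted by Benjamini-Hochberg, with calls at 0.05 and 1.5-fold. The script was tested on simulated data. Members under the minimum and within-library ratios were compared by exact two-sided permutation tests. Transcripts, GC content and motifs came from RefSeq on Sscrofa11.1, and other loci from BLAST 2.17.0. Lengths and coordinates are those of this reference.

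Named genes were the 10 members, 6 droplet regulators, in each lipid list the 3 largest rises and 3 largest falls past the thresholds at 46h against 0h plus the most abundant gene, and the 2 nearest genes of each called member. The members and lists were chosen with earlier results of these data known. Alternatives covered the pseudocount, filter, scaling, spread, block and each library left out.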

Additional observations from a re-analysis of the deposited data

Results flagged for a closer look

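In groups of 4 libraries, a library was singled out where its gap to the nearest other took up nearly the whole range of its group. Of 24 groups of member values examined, 4 met this, and chance flags about 1 in 20 groups of continuous values. That rate does not apply to groups at or near 0, where a lone value above 0 meets the rule by construction. PLIN3 at 0h was highest in replicate 1, at 3.09 FPKM, beside 1.48 to 1.58 FPKM in the others. Without that library the change of PLIN3 at 22h against 0h was 0.01. LIPE at 46h was highest in replicate 3 (0.07 FPKM) and MGLL at 0h in replicate 2 (0.07 FPKM), each with the rest of the stage at 0. DGAT1 at 22h was lowest in replicate 1, at 0 FPKM, beside 0.10 to 0.11 FPKM. By the approximate scale in the report, the cases of LIPE, MGLL and DGAT1 each concern about 1 fragment.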

How the results depend on the processing

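Changes of a few fragments limit PLIN3, FABP5 and every gene below them. The number of members past the thresholds at 22h against 0h, 1 as deposited, was 0 with no filter, with a minimum of 5 FPKM, with median-of-ratios scaling, with quantile normalization and with only the groups compared, and 0 to 1 with each library left out. At 46h against 22h it was 1, and became 2 with a pseudocount of 0.1 and with median-of-ratios scaling, 0 with a minimum of 5 FPKM and with quantile normalization, and 1 to 2 with each library left out. At 46h against 0h it was 3, and became 1 with a minimum of 5 FPKM (which left PLIN2 and FABP3 to test) and with quantile normalization, and 2 to 3 with each library left out. Of the other lipid genes, 5 were called at 22h against 0h, 3 with no filter, 8 with quantile normalization and 3 to 6 with each library left out. Their counts at 46h against 22h and at 46h against 0h, 14 and 22, became 8 and 11 with a minimum of 5 FPKM. The cause of these moves was not tested beyond the smaller number of genes tested.

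With each library left out, the log2 change at 22h against 0h ran from -0.327 to 0.00541 for PLIN3 (turning without replicate 1 of 0h) and from -0.0127 to 0.258 for FABP3 (without replicate 2 of 22h), and at 46h against 0h from -0.0951 to 0.331 for PLIN2 (without replicate 4 of 0h). Under the minimum it ran from -0.0446 to 0.230 for ABHD5 at 46h against 0h (without replicate 2 of 0h), and at 22h against 0h from -0.0508 to 0.111 for LIPE and from -0.0102 to 0.0483 for MGLL (both without replicate 3 of 22h). FABP5 at 46h against 22h was 0.14 with quantile normalization. None of these member values that turned had been called.

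The labels do not say what the replicate numbers stand for. The correlation of same-numbered deviations ran from -0.47 to 0.38 over all comparisons. At 46h against 22h it was positive for every number (0.381, 0.009, 0.211 and 0.127 in order), so a link between same-numbered libraries of these stages remains possible. With the replicate block the member counts were 1, 1 and 2 and those of the other lipid genes 7, 14 and 22. FABP3 at 46h against 0h was the member call lost (adjusted p = 0.0547). With each library left out, 0 of the exact tests of members under the minimum and 0 of those of ratios passed the adjustment, as with all libraries. As 4 pairs the ratios cannot go below an exact p of 0.125.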

Other observations

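Replicate 4 of 0h resembled the other libraries of its stage least, with correlations of log2 values between 0.934 and 0.970, and it had the lowest PLIN2 (87.8 FPKM) and the highest FABP5 (3.62 FPKM) of that stage. Without it, the fall of FABP5 at 46h against 0h remained a call.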
